A study of Mus musculus with 37 samples.

Results

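Macrophages that had shared a dish with fat fibroblasts for 7 days were compared with macrophages taken at day 0, before co-culture. The comparison used the 4 fat co-culture and the 4 day-0 libraries, chosen by their labels, which are 8 of the 37 samples of the series and 8 of its 16 macrophage libraries. All cells came from BALB/c mice aged 8 weeks, and the labels name no genetic change in either group. The day-0 group consists of macrophages grown from female bone marrow in DMEM with serum and medium conditioned by L929 cells, mouse fibroblasts known as a source of CSF1, and reseeded on day 7 of their own culture. The fat group consists of such macrophages seeded onto collagen I together with fibroblasts from mesometrial fat, the fat pad beside the uterus, of which 2 females were pooled per replicate. These fibroblasts had been expanded in culture and depleted of cells carrying CD45 or EpCAM, surface proteins of leukocytes and of epithelium. After 7 days in DMEM with serum, live cells positive for F4/80 and CD11b were sorted as macrophages, and the labels give the same markers for the day-0 cells. Per the series' design text, macrophages could not be maintained alone in the control medium, so the control was taken at day 0. Time in culture, the medium, the collagen coat and the presence of fibroblasts therefore differ together between the groups and cannot be told apart. In addition, 4 macrophage libraries each from lung and mammary fibroblast co-cultures of the same length served to show where the fat co-culture differed from its like.

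Macrophages are phagocytes that take up dying cells, microbes and lipoproteins and pass signals to the cells around them. In connective tissue their main partners are fibroblasts, which supply CSF1, the factor most macrophages need to survive, while macrophages return growth factors, chemokines and matrix-degrading enzymes. Their gene expression is known to follow both the tissue they settle in and transient cues such as interferons, low oxygen and contact with apoptotic cells.

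The sort markers were present in all 8 libraries. Adgre1, which encodes F4/80, stood at 811, 901, 971 and 806 CPM (counts scaled to library size) in day-0 replicates 1 to 4 and at 1032, 908, 1257 and 1133 in fat replicates 1 to 4. Itgam, the CD11b gene, stood at 612, 659.5, 740.3 and 590.3 at day 0 and at 904, 1212, 1030.2 and 1028 after fat co-culture. The groups overlapped for Adgre1, whereas every fat library lay above every day-0 library for Itgam. Library totals ran from 3040103 to 4969481 counts at day 0 and from 4173149 to 5225982 after fat co-culture, at which 3 counts correspond to 0.571 to 0.975 CPM. Among the day-0 libraries, the pairs with replicate 2, the shallowest, included the 2 largest distances (chi-square per degree of freedom 14.8 and 14.7, other pairs 8.82 to 12.7). Among the fat libraries, the pairs with replicate 2 were the most distant (10.6, 9.90 and 12.5, other pairs 3.47 to 6.37). Transcripts of fibroblast marker genes were higher in the fat libraries. All 11 of the 11 tested fibroblast markers were called higher, their summed level was 6.82 to 17.5 CPM at day 0 and 208 to 371 CPM after fat co-culture, and the mean over markers of log2(CPM + 0.5) was 0.07 ± 0.29 and 3.35 ± 0.40 (SD, n = 4 each; two-sided exact test by permutation of the libraries, p = 0.0286, the least that 4 against 4 can give). Set against co-cultured fat fibroblasts, the median rise of the fibroblast markers over the day-0 mean in fat replicates 1 to 4 was 1.34, 0.838, 1.60 and 1.03% of the fibroblast level. In these bulk libraries, a change in the cells of a type and a change in RNA per cell cannot be told apart. Smooth muscle genes moved with the fibroblast markers (Tagln, Des, Cnn1 and Acta2 were called higher). Summed mesothelial markers went from 0 to 0.413 CPM at day 0 to 2.59 to 8.76 CPM, and epithelial ones from 0 to 0.772 CPM to 1.18 to 2.52 CPM, with none of their genes passing the filter on low counts. The neutrophil list kept 3 of its 12 genes in the table, with summed levels of 11.8 to 32.5 CPM at day 0 and 33.0 to 47.3 CPM after fat co-culture, and its defining genes S100a9, Mpo, Elane and Ly6g were not among them. Of the 3, Prtn3 and Csf3r were called higher and S100a8 had no call. Cd2, the only T and NK cell marker in the table, was called lower (3.93 to 9.84 CPM at day 0, 2.75 to 4.76 CPM after fat co-culture). The only B cell and dendritic markers in the table were untested. At day 0 they stood at 1.04 to 3.09 and 0.207 to 0.650 CPM. After fat co-culture they stood at 0.190 to 0.942 and 0 to 0.237 CPM. Of the adipocyte list only Fabp4 was in the table, without a call. The 3 endothelial markers tested had no call. The part of these other cell types in the results was not tested. No mast cell or erythroid marker was in the table.

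Of 10295 genes tested, 3107 (30.2%) were called in fat co-culture against day 0, 1624 higher (15.8%) and 1483 lower (14.4%). A call is an adjusted p under 0.05 in edgeR's quasi-likelihood test, and the adjusted p of a gene refers to this test throughout. Called changes of at least 2-fold comprised 788 rises and 330 falls, and the median log2 fold change over all genes tested was -0.01. All 4 fat libraries lay above all 4 day-0 libraries for 1607 of the genes tested (15.6%) and below them for 1327 (12.9%). Because fibroblast marker transcripts were present, each rise was also expressed as a percentage of the gene's mean level in 3 libraries of co-cultured fat fibroblasts. Which cells those transcripts came from was not tested. Of the called rises, 195 came to at most 5% of the fibroblast level and are termed reachable by fibroblast RNA, 1362 came to more, and 67 were of genes absent from the fibroblast table.

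The largest rises past 5% of the fibroblast level included Pmepa1. Pmepa1 encodes a membrane protein that is induced by TGF-β and restrains its signalling. It stood at 0.965, 0.975, 1.67 and 0.827 CPM at day 0 and at 66.6, 73, 72.2 and 66 CPM after fat co-culture, a log2 fold change of 5.92 ± 0.30 (SE; adjusted p = 3.2e-11). The 4 fat libraries lay close together, and in the lung co-culture the mean was 5.04 ± 1.33 CPM against 59.6 ± 20.6 in the mammary one. Gcnt2, the enzyme that branches poly-lactosamine chains into blood group I structures, went from a mean of 0.297 ± 0.373 to 20.6 ± 3.57 CPM (log2 fold change 5.84 ± 0.47, adjusted p = 1.7e-08). Every fat library exceeded every day-0 library for both genes, which the choice of leading genes required. Lrg1, a secreted glycoprotein that modifies TGF-β signalling in blood vessels, stood at 0.193, 1.30, 1.67 and 0.827 CPM at day 0 and at 41.5, 40.8, 22.3 and 25 CPM after fat co-culture. Its level in fat fibroblasts was 2.47 ± 2.76 CPM, below that in every fat macrophage library. Saa3, an acute-phase apolipoprotein of macrophages and fat tissue, stood at 18.5, 19.2, 30.5 and 22.3 CPM at day 0 and at 345, 624, 380.0 and 351 CPM after fat co-culture (log2 fold change 4.22 ± 0.31, adjusted p = 5.53e-08). Replicate 2 was the highest fat library for Saa3, and the groups did not overlap.

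Fn1 (fibronectin), Plppr3, Nr4a1 and Bcl2a1b were among the same 15 leading rises, as was Cck, described below. Fn1, a matrix glycoprotein that both fibroblasts and monocytes make, stood at 15.4, 34.8, 21.3 and 14.5 CPM at day 0 and at 804, 1048, 639 and 554 CPM after fat co-culture, and its rise was 11.6% of the fibroblast level. All 4 fat libraries were far above every day-0 library. Nr4a1, an orphan nuclear receptor and immediate early gene, went from 7.07 ± 0.557 to 110.5 ± 25.5 CPM (log2 fold change 3.96 ± 0.48, adjusted p = 2.21e-05). Bcl2a1b, an anti-apoptotic BCL2 relative, went from 2.06 ± 0.177 to 29.3 ± 7.13 CPM. The mouse genome holds near-identical copies of it, so which copy the counts belong to is uncertain. Arg1, Tspoap1, Trem1, Il1b, Socs3 and Nxpe5 completed the 15.

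The largest rises termed reachable by fibroblast RNA were of contractile and matrix genes. Des, the intermediate filament protein of muscle, had 1 count in all 4 day-0 libraries together and stood at 21.1, 28.6, 28.6 and 23.1 CPM after fat co-culture, which is 1.71% of the fibroblast level. Serpinh1, the collagen chaperone, stood at 0.386, 0.325, 0.418 and 0.207 CPM at day 0 and at 32.7, 19, 44.5 and 31.1 CPM after fat co-culture, 1.25% of the fibroblast level. Bgn (biglycan), Aebp1 and Myl9 had rises of 2.76, 1.38 and 1.47% of that level. These percentages lie within the range of the fibroblast markers, whose rises were 0.519 to 3.54% of their fibroblast level. Cck, which encodes the peptide hormone cholecystokinin, stood at 0.386, 0, 0.209 and 0.413 CPM at day 0 and at 14.5, 34.3, 29.6 and 22.1 CPM after fat co-culture. Its rise was 5.01% of a fibroblast level of 497 ± 488 CPM (SD, n = 3), so its side of the 5% limit is not determined. The limit itself is not sharp, since rises of single fibroblast markers reached up to 6.16% of their fibroblast level in fat replicate 3.

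**Figure D1:**
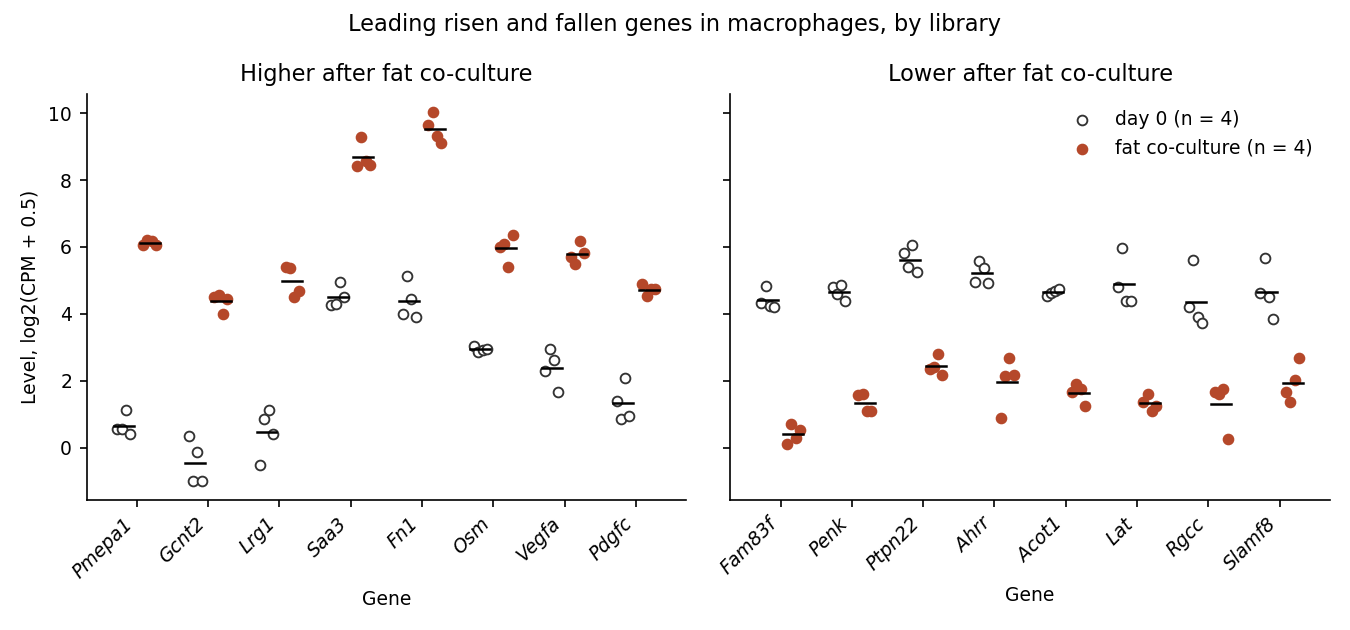
Levels of leading risen and fallen genes in each library, as log2(CPM + 0.5); open circles are the 4 day-0 libraries, filled circles the 4 fat co-culture libraries and bars the group means. The 2 groups do not overlap for any gene shown, which for Pmepa1, Gcnt2, Lrg1, Saa3, Fn1 and the fallen genes was a condition of their choice. Pmepa1 varies little among the fat libraries, at 66.0 to 73.0 CPM.

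**Figure D2:**
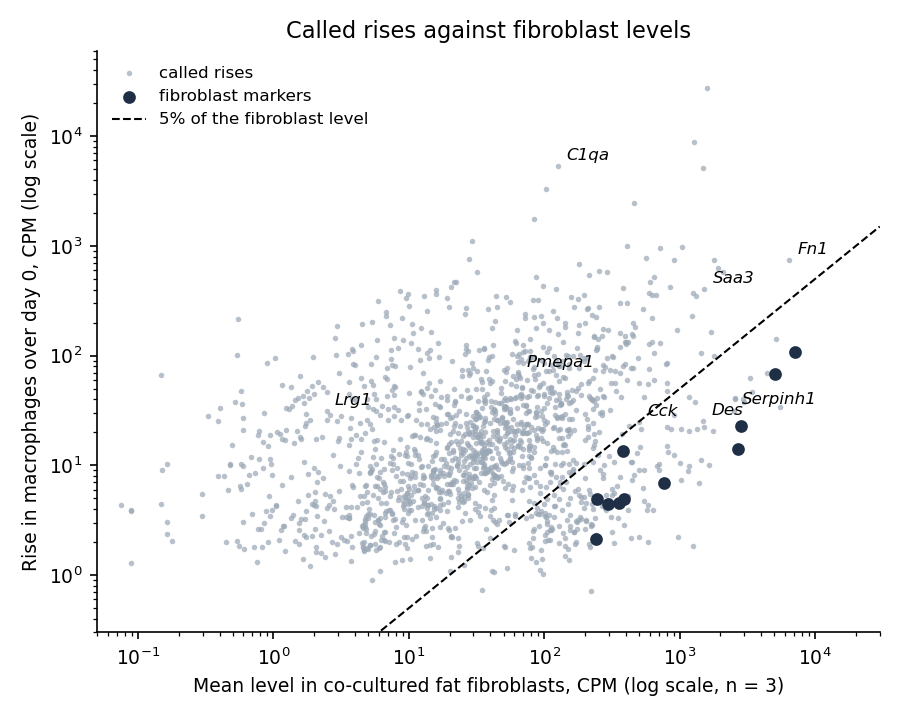
Each called rise by its mean level in 3 libraries of co-cultured fat fibroblasts (x axis, CPM, log scale) and by its rise over day 0 in macrophages (y axis, CPM, log scale); the line marks 5% of the fibroblast level. The fibroblast markers (dark points) lie below the line and most other called rises lie above it.

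The largest falls were of genes with varied roles. Fam83f, a gene of the casein kinase 1-binding FAM83 family, stood at 19.7, 28.3, 18.4 and 18 CPM at day 0 and at 0.571, 1.14, 0.710 and 0.942 CPM after fat co-culture (log2 fold change -4.61 ± 0.35, adjusted p = 6.53e-09). Penk, which encodes the enkephalin precursor, stood at 27.4, 23.7, 28.8 and 20.3 CPM at day 0 and at 2.47, 2.52, 1.66 and 1.65 CPM after fat co-culture. No fat library came near a day-0 library for either gene. Ptpn22, a phosphatase that damps antigen and Toll-like receptor signals, went from 50.0 ± 13 to 4.94 ± 1.02 CPM (10.1-fold lower, adjusted p = 2.03e-09). Ahrr, the repressor of the aryl hydrocarbon receptor, went from 37.2 ± 8.77 to 3.79 ± 1.88 CPM. Acot1, a cytosolic acyl-CoA thioesterase, stood at 22.8, 24.1, 25.3 and 26.5 CPM at day 0 and at 2.66, 3.21, 2.84 and 1.88 CPM after fat co-culture, with little spread in either group. Lat, an adaptor best known from T cells, and Rgcc, a cell-cycle regulator, fell too (15.5-fold and 10.3-fold), and both were highest in day-0 replicate 2, at 62.1 and 48.8 CPM against at most 27.4 and 17.7 CPM in the other day-0 libraries. Without that replicate the log2 fold changes were -3.47 and -2.76, and both remained called. Slamf8, which lowers the oxidative burst of phagocytes, went from 27.6 ± 15.8 to 3.54 ± 1.68 CPM, and Cdkn1c, Itgb7, Pparg, Lpl, H2-Aa, H2-Eb1 and Cd74 completed the 15.

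Genes were next grouped by role, and each group's share of calls can be read against 15.8% higher and 14.4% lower over all genes tested. The lists were chosen with earlier results of these data known, so a share beyond these may in part follow from that choice. Most members named with values were chosen for their small adjusted p, so a lack of overlap of fat and day-0 libraries partly follows.

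**Figure D3:**
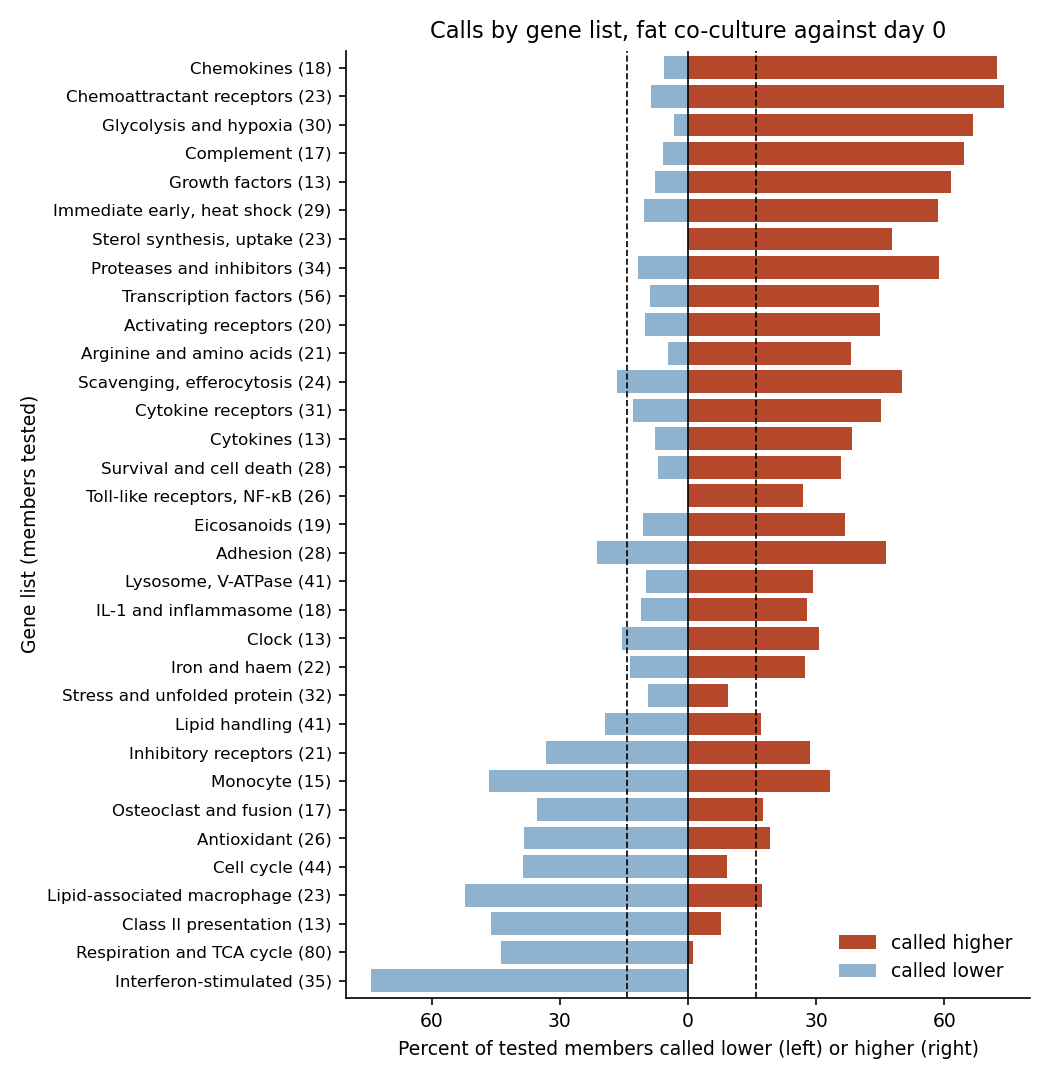
Percentage of the tested members of each gene list called higher (right, dark) and lower (left, light) in fat co-culture than at day 0; dashed lines mark the percentages over all genes tested, 15.8 and 14.4. Chemokines, chemoattractant receptors and glycolysis genes lie far to the right, and interferon-stimulated genes, oxidative phosphorylation and lipid-associated macrophage genes to the left. The lists were chosen with earlier results of these data known.

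Among secreted proteins, most chemokines rose. Of 18 chemokine genes tested, 13 were called higher and 1 lower, with a median log2 fold change of 1.61, and 1 of the rises was reachable by fibroblast RNA. Against the lung co-culture 2 of the 18 were called higher and 7 lower in fat (2.06 and 1.04% over all genes). Against the mammary one 5 were called higher and 2 lower (1.67 and 1.05% over all genes). Cxcl2, a neutrophil attractant, stood at 94.9, 95.9, 128 and 112 CPM at day 0 and at 287, 407, 241 and 352 CPM after fat co-culture (log2 fold change 1.58 ± 0.18, adjusted p = 1.62e-06). Ccl12, a ligand of CCR2 on monocytes, stood at 3.09, 3.90, 5.85 and 2.89 CPM at day 0 and at 24.7, 32.5, 25.8 and 24.5 CPM after fat co-culture (log2 fold change 2.77 ± 0.32, adjusted p = 3.41e-06). Neither gene's groups overlapped. Cxcl2 was higher than in the mammary co-culture (mean 118 ± 27.5 CPM, adjusted p = 8.15e-05), while Ccl12 was lower than in both the lung (mean 60.6 ± 25.7 CPM, adjusted p = 0.00972) and the mammary co-culture (mean 91.3 ± 20.3 CPM, adjusted p = 0.000477). Ppbp, the platelet chemokine CXCL7, stood at 0.579, 0, 0.209 and 0 CPM at day 0, which is at most 3 counts in any library, and at 5.52, 4.81, 4.03 and 4.95 CPM after fat co-culture. Cxcl10, an interferon-induced T cell attractant, was the member that fell, from 101, 30.9, 78.5 and 54.8 to 15.8, 9.84, 14.2 and 9.19 CPM (log2 fold change -2.44 ± 0.41, adjusted p = 0.000375). The most abundant member without a call was Ccl2, at 255, 38, 155 and 122 CPM at day 0 and 305, 420.4, 200.3 and 203 CPM after fat co-culture (adjusted p = 0.123). Day-0 replicate 2 was the lowest Ccl2 library and replicate 1 lay within the fat range; without day-0 replicate 1 Ccl2 was called higher (log2 fold change 1.42, adjusted p = 0.0355).

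Of 13 cytokine genes, 5 were called higher and 1 lower. Osm encodes oncostatin M, an interleukin-6 family cytokine to which fibroblasts respond. It stood at 7.72, 6.83, 7.10 and 7.23 CPM at day 0 and at 63.4, 66.9, 41.7 and 81.3 CPM after fat co-culture (log2 fold change 3.12 ± 0.26, adjusted p = 4.47e-08) and was not found in the fibroblast table. The day-0 libraries agreed closely, and all fat libraries lay well above them. Il16, a ligand of CD4, and Tnfsf14, the TNF-family ligand LIGHT, rose 3.80-fold and 2.68-fold. Csf1 rose as well (2.28 ± 0.24 on the log2 scale), by 2.81% of its level in fat fibroblasts, where it stood at 803 ± 234 CPM. Tnf was lower, at 115, 63.4, 101 and 99.2 CPM at day 0 and 53.9, 68.2, 63.9 and 42.6 CPM after fat co-culture (adjusted p = 0.0163). The Tnf groups overlapped, and its call was lost without fat replicate 4 (adjusted p = 0.0568) or day-0 replicate 1 (adjusted p = 0.0591).

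Interleukin-1β is released once an inflammasome has activated caspase-1 and gasdermin D has opened the membrane. In this group of 18 genes, 5 were called higher and 2 lower, and the former count was 3 without fat replicate 1, 3 or 4 or day-0 replicate 1. Nlrp3, the sensor of the best known inflammasome, stood at 34.5, 27.6, 33.6 and 36.2 CPM at day 0 and at 82.6, 101, 72.7 and 91.9 CPM after fat co-culture (log2 fold change 1.39 ± 0.13, adjusted p = 1.03e-07). Nlrc4, the sensor adaptor for bacterial flagellin, rose from 7.94 ± 3.04 to 14.4 ± 1.74 CPM. Gsdmd, which encodes gasdermin D, fell from 315, 310.4, 377 and 263 to 228, 244, 239.6 and 259 CPM, and Casp4, a caspase that senses lipopolysaccharide in the cytosol, fell from 24.2 ± 4.48 to 14.4 ± 2.39 CPM (adjusted p = 0.00849 and 0.00383). Casp1 and Il18 had no call, nor had the sensor genes Nlrp1b and Aim2.

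Growth factor genes were called higher in 8 of 13 cases and lower in 1. Pdgfc, a platelet-derived growth factor that signals through PDGFRα on fibroblasts, stood at 2.12, 1.30, 3.76 and 1.45 CPM at day 0 and at 29.1, 22.7, 26.3 and 26.1 CPM after fat co-culture (log2 fold change 3.54 ± 0.25, adjusted p = 2.37e-09). Vegfa, the main growth factor of blood vessels, stood at 4.44, 7.15, 5.64 and 2.69 CPM at day 0 and at 51, 44.9, 72 and 56.3 CPM after fat co-culture (log2 fold change 3.53 ± 0.25, adjusted p = 4.49e-09). Bmp2, a bone morphogenetic protein, went from 0.334 ± 0.258 to 11.7 ± 3.69 CPM (adjusted p = 1.42e-08). The groups did not overlap for these 3 genes, and Bmp2 was also above the mammary co-culture (mean 0.498 ± 0.0436 CPM, adjusted p = 5.07e-07) but not the lung one (mean 15.2 ± 3.37 CPM, adjusted p = 0.596). Gas6, the bridge between dying cells and the receptors MERTK and AXL, stood at 511, 894, 609.6 and 892 CPM at day 0 and at 1703, 1326, 1824 and 1882 CPM after fat co-culture. Its level was lower in the fat than in the lung co-culture, whose mean was 2731 ± 58.2 CPM (adjusted p = 0.0108). Pdgfb was the one that fell (1.87-fold, adjusted p = 0.00401).

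Most receptors for chemoattractants rose. Of 23 tested, 17 were called higher and 2 lower, with a median log2 fold change of 1.12, and 0 of the rises were reachable by fibroblast RNA. Gpr84, a receptor for medium-chain fatty acids, stood at 29.9, 12.7, 27.8 and 20.5 CPM at day 0 and at 103, 133, 106 and 127 CPM after fat co-culture (log2 fold change 2.35 ± 0.20, adjusted p = 5.08e-08). S1pr1, the sphingosine-1-phosphate receptor that guides cells out of tissues, stood at 77.4, 90.4, 96.9 and 78.1 CPM at day 0 and at 207, 229.6, 221 and 207 CPM after fat co-culture (log2 fold change 1.33 ± 0.14, adjusted p = 5.24e-07). C5ar1, the receptor for complement fragment C5a, went from 152 ± 21.9 to 346 ± 37.4 CPM (adjusted p = 7.97e-06). All 3 were without overlap between the groups, and S1pr1 was also higher than in the lung (mean 146 ± 24.7 CPM, adjusted p = 0.0241) and mammary co-cultures (mean 136 ± 27.2 CPM, adjusted p = 0.011). The purinergic receptors P2ry2, P2ry6, P2ry12 and P2ry13 and the formyl peptide receptors Fpr1 and Fpr2 were among the other risen members. Ccr2, the receptor by which monocytes leave the marrow, fell from 40.1, 66.6, 64.9 and 46.9 to 17.7, 13.7, 36 and 20.3 CPM (adjusted p = 0.00211), and Ptafr, the receptor of platelet-activating factor, fell 2.24-fold.

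**Figure D4:**
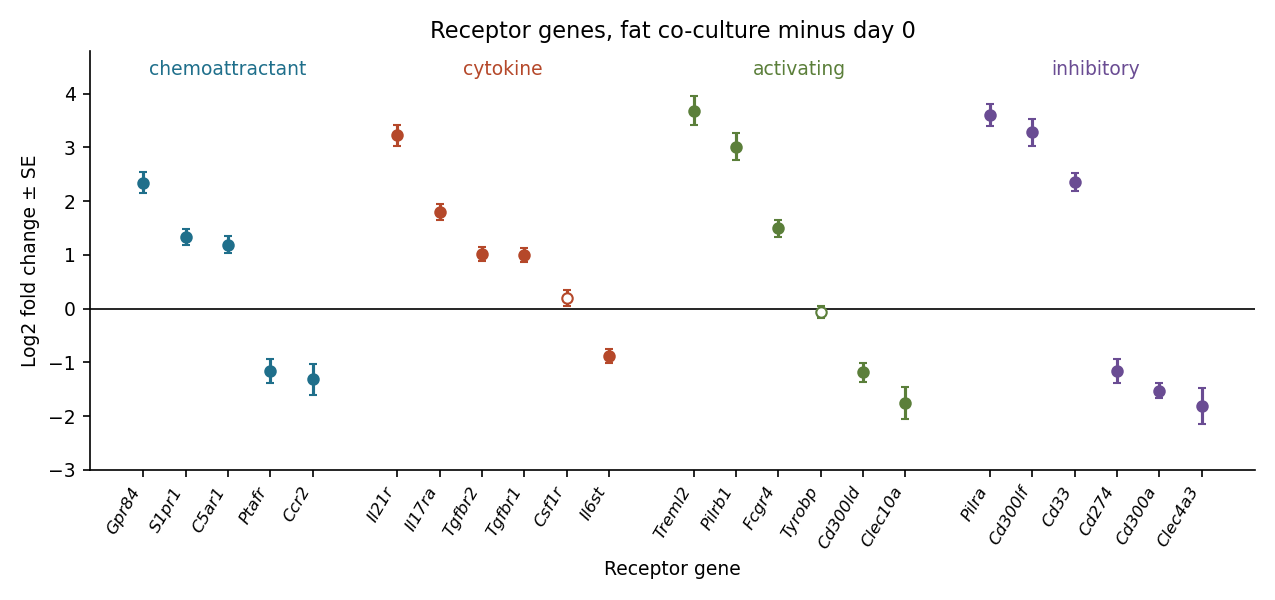
Log2 fold change, fat co-culture minus day 0, with its standard error for receptor genes named in the text, grouped as chemoattractant, cytokine, activating and inhibitory receptors; filled points were called and open points were not. Rises and falls occur side by side among inhibitory receptors, and 3 of the 5 chemoattractant receptors shown lie above 0.

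Cytokine receptors were called higher in 14 and lower in 4 of 31 cases, the latter count being 2 without fat replicate 4 or day-0 replicate 3. Il21r, the interleukin-21 receptor chain, stood at 7.72, 16.6, 11.3 and 14.3 CPM at day 0 and at 111, 101, 116 and 130.5 CPM after fat co-culture (log2 fold change 3.23 ± 0.19, adjusted p = 3.44e-10). Il17ra, the shared chain of interleukin-17 receptors, went from 79.5 ± 12.7 to 278 ± 19.1 CPM. Both receptor chains for TGF-β rose, Tgfbr1 from 128, 172, 119 and 131 to 278, 235, 305 and 275 CPM (adjusted p = 9.03e-06) and Tgfbr2 from 267, 237, 302 and 246 to 543, 553, 529 and 504 CPM (adjusted p = 9.42e-06). No fat library overlapped a day-0 library for these 4 genes. Il6st, the gp130 chain used by interleukin-6 and oncostatin M, fell from 35.3, 32.8, 35.9 and 33.9 to 18.3, 18.3, 19.2 and 19.3 CPM (log2 fold change -0.88 ± 0.13, adjusted p = 3.16e-05). Csf1r, the CSF1 receptor, was the most abundant member without a call, at 1607 ± 224 and 1847 ± 305 CPM (adjusted p = 0.321).

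Activating and inhibitory receptors of myeloid cells, which couple to DAP12 and related adaptors or to phosphatases, changed in both directions. Of 20 activating receptors and adaptors, 9 were called higher and 2 lower, and of 21 inhibitory ones 6 higher and 7 lower (4 lower without day-0 replicate 2). The paired receptors Pilra, inhibitory, and Pilrb1, activating, rose together: Pilra stood at 2.89, 2.28, 4.18 and 2.27 CPM at day 0 and at 38.3, 38.5, 35 and 32.7 CPM after fat co-culture, and Pilrb1 at 2.89, 5.53, 3.13 and 3.51 and 20.9, 40.8, 31.3 and 25.4 CPM (adjusted p = 1.03e-10 and 2.87e-08). Cd300lf, an inhibitory receptor for ceramide and phosphatidylserine, stood at 22.6, 7.15, 21.1 and 13.2 CPM at day 0 and at 156, 201, 134 and 148 CPM after fat co-culture (log2 fold change 3.28 ± 0.25). Of its relatives on these lists, Cd300lb had no call, Cd300a fell from 255, 356, 330.5 and 273 to 101, 121, 103 and 94.7 CPM and Cd300ld fell from 133, 102, 173 and 102 to 55.8, 64.6, 57.5 and 45.9 CPM (adjusted p = 7.84e-08 and 4.37e-05). The groups did not overlap for Pilra, Pilrb1, Cd300lf, Cd300a or Cd300ld. Cd33, an inhibitory sialic acid-binding lectin, rose 5.12-fold, Treml2 12.9-fold and Fcgr4, the Fc receptor for IgG2a and IgG2b, 2.82-fold. The C-type lectin Clec4a3 and Cd274, the PD-L1 gene, fell 3.49-fold and 2.23-fold. Clec10a, a galactose-type lectin, fell from 10.2, 16.3, 22.8 and 12 to 4.19, 5.49, 4.97 and 3.30 CPM, and its mean in the lung co-culture was 24.6 ± 4.39 CPM (fat lower, adjusted p = 2.05e-05). The adaptor Tyrobp, which encodes DAP12, had no call (4322 ± 508 and 4123 ± 358 CPM, adjusted p = 0.697).

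Toll-like receptor and NF-κB genes were called higher in 7 of 26 cases and the other 19 had no call, with a median log2 fold change of 0.14. Tlr2, the receptor for bacterial lipopeptides, stood at 91.8, 86.1, 118 and 93.2 CPM at day 0 and at 168, 213, 195 and 183 CPM after fat co-culture (log2 fold change 0.96 ± 0.14, adjusted p = 2.68e-05). Nfkbiz, a nuclear cofactor of NF-κB, and Zc3h12a, the RNase regnase-1 that degrades inflammatory transcripts, rose 2.93-fold and 1.61-fold. The 4 fat libraries lay above the 4 day-0 libraries for these 3 genes, whereas Cd14, the lipopolysaccharide co-receptor, had no call (1245 ± 193 and 1120.3 ± 57.7 CPM).

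Scavenger receptor genes and genes for the uptake of dying cells, listed together, were called higher in 12 and lower in 4 of 24 cases, and complement genes in 11 and 1 of 17. Mertk, the receptor kinase that engulfs apoptotic cells through the bridge GAS6, stood at 12.3, 17.2, 13.6 and 12.4 CPM at day 0 and at 54.8, 59.8, 58.7 and 66.9 CPM after fat co-culture (log2 fold change 2.13 ± 0.20, adjusted p = 9.77e-08). C1qa, a chain of the complement starter C1q, stood at 482, 932, 560.1 and 756 CPM at day 0 and at 5315, 5378, 6833 and 6631 CPM after fat co-culture (log2 fold change 3.15 ± 0.25, adjusted p = 4.68e-08). C1qc rose 4.72-fold. The fat libraries lay above all day-0 libraries for these genes, and by a wide margin for C1qa. Anxa1, which encodes a pro-resolving protein, fell from 1645, 1657, 1837 and 1419 to 431, 674, 414 and 387 CPM (log2 fold change -1.78 ± 0.18, adjusted p = 3.72e-07), with fat replicate 2 the highest of its group. Cd36, a receptor for oxidised lipoproteins, and Folr2, a folate receptor of tissue macrophages, fell 4.00-fold and 1.90-fold.

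Genes of lipid-associated macrophages, cells known from obese fat tissue, included more falls than rises: 4 of 23 were called higher and 12 lower (median log2 fold change -0.37). Lgals3, which encodes galectin-3, stood at 11299.5, 12479, 8665 and 10334 CPM at day 0 and at 4271, 4445, 3927 and 4375 CPM after fat co-culture (log2 fold change -1.33 ± 0.12, adjusted p = 7.62e-08). Gpnmb, a glycoprotein of lysosomal stress, stood at 632, 892, 756 and 593 CPM at day 0 and at 245, 382, 248 and 278 CPM after fat co-culture (log2 fold change -1.31 ± 0.15, adjusted p = 8.46e-07). Itgax, the CD11c gene, fell from 54.4, 125, 52.4 and 38.9 to 14.7, 14.4, 15.9 and 15.8 CPM (adjusted p = 4.05e-05). Each fat library was below each day-0 library for all 3, and day-0 replicate 2 was the highest for each. Trem2, the lipid receptor that marks these cells, had no call, at 1916 ± 199 and 2103 ± 83.9 CPM (adjusted p = 0.362), whereas the lysosomal proteases Ctsb and Ctsd rose 1.66-fold and 1.39-fold. The Trem2 groups overlapped.

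Genes of osteoclasts and of macrophage fusion were called higher in 3 and lower in 6 of 17 cases, the former count being 1 without day-0 replicate 1. Dcstamp, a membrane protein needed for fusion of macrophages into giant cells, had 2.70, 7.15, 3.76 and 3.51 CPM at day 0, 71 counts in all, and 0 counts in each fat library. Against a floor of 3 counts over the fat group, it was at least 25.8-fold lower. Ctsk, the collagen-cleaving protease of osteoclasts, stood at 72.2, 88.1, 74.9 and 46.7 CPM at day 0 and at 20.4, 24.7, 18.9 and 16.5 CPM after fat co-culture (log2 fold change -1.80 ± 0.20, adjusted p = 7.31e-07). Cd44, the hyaluronan receptor, fell 2.10-fold, and Jdp2, an AP-1 partner needed for osteoclasts, rose 2.27-fold. The groups did not overlap for Ctsk, Cd44 or Jdp2.

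Among proteases and their inhibitors, 20 of 34 were called higher, 5 of them reachable by fibroblast RNA, and 4 lower. Ctsc, the cathepsin that activates granule serine proteases, stood at 14.7, 10.7, 16.3 and 15.3 CPM at day 0 and at 62.1, 76.9, 62.5 and 65.7 CPM after fat co-culture (log2 fold change 2.21 ± 0.15, adjusted p = 2.28e-09). Its level in fat fibroblasts was 4.69 ± 1.89 CPM. Mmp14, a membrane-bound collagenase, stood at 4.44, 4.23, 6.89 and 3.72 CPM at day 0 and at 43.8, 78.5, 69.1 and 68.1 CPM after fat co-culture, a rise of 9.25% of the fibroblast level. It was higher in the fat than in the lung co-culture (mean 30.1 ± 6.92 CPM, adjusted p = 0.00572) and lower than in the mammary one (mean 161 ± 42.6 CPM, adjusted p = 0.00124). Timp2, an inhibitor that also helps MMP14 activate MMP2, rose 2.39-fold. Among the fallen, Adam17, the sheddase of TNF, went from 226 ± 20.7 to 158 ± 13 CPM and the cathepsin inhibitor Cstb from 1440.1 ± 279 to 893 ± 96.1 CPM. Ctss had no call (7935 ± 1126 and 6964 ± 955 CPM).

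Energy metabolism genes split by pathway. Of 30 glycolysis and hypoxia-response genes, 20 were called higher and 1 lower (median log2 fold change 0.80; the single fall was lost without fat replicate 2, 3 or 4 or day-0 replicate 1 or 4), and 0 of the rises were reachable by fibroblast RNA. Of 80 genes of the respiratory chain and the citric acid cycle, 35 were called lower and 1 higher (median -0.33); the single rise was lost without any 1 of 7 of the 8 libraries. Hk2, the inducible hexokinase that starts glycolysis, stood at 11.8, 9.10, 12.1 and 10.5 CPM at day 0 and at 29.9, 29.5, 35.3 and 39.8 CPM after fat co-culture (log2 fold change 1.61 ± 0.14, adjusted p = 5.71e-08). Epas1, which encodes the oxygen-regulated factor HIF-2α, stood at 9.84, 8.13, 10.0 and 7.03 CPM at day 0 and at 43.8, 53.3, 32 and 39.1 CPM after fat co-culture (log2 fold change 2.25 ± 0.21, adjusted p = 1.27e-07). Bnip3, a hypoxia-induced mitophagy receptor, rose 3.58-fold. All 3 were without overlap. Sdhb, a subunit of succinate dehydrogenase, stood at 676, 652, 598 and 673 CPM at day 0 and at 410.0, 485, 422 and 439 CPM after fat co-culture (log2 fold change -0.57 ± 0.10, adjusted p = 0.000198). The complex I subunits Ndufs6 and Ndufa2 and cytochrome c1, Cyc1, fell 1.51-, 1.43- and 1.41-fold. These falls were modest in size and separated the groups in each case. In the promoter windows described below, ACGTG or GCGTG, the core of the hypoxia response element, was present in 26 of 28 genes of the glycolysis and hypoxia list (92.9%) and in 69.0% of all genes with a window. It was present in 17 of 19 members called higher, in the 1 called lower and in 8 of 8 without a call.

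Genes of arginine, proline and tryptophan use included 8 called higher and 1 lower of 21, the latter count being 3 without day-0 replicate 2 and 2 without day-0 replicate 3. Arg2, the mitochondrial arginase, stood at 2.12, 3.25, 2.71 and 2.07 CPM at day 0 and at 19.8, 23.1, 26 and 24.5 CPM after fat co-culture (log2 fold change 3.22 ± 0.35, adjusted p = 1.15e-06). P4ha2 and P4ha1, prolyl hydroxylases of collagen, rose 4.41-fold and 3.59-fold, with rises of 16.7 and 63.4% of the fibroblast level. Kmo, which makes 3-hydroxykynurenine from kynurenine, rose from 0.841 ± 0.481 to 4.74 ± 1.30 CPM, and Sms, spermine synthase, fell 2.03-fold. The fat and day-0 libraries did not overlap for these 5 genes.

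Antioxidant genes were called higher in 5 and lower in 10 of 26 cases, and the latter count was 6 without day-0 replicate 1. Taldo1, an enzyme of the pentose phosphate pathway, stood at 2403, 1678, 2040.0 and 2034 CPM at day 0 and at 916, 1076, 912 and 923 CPM after fat co-culture (log2 fold change -1.09 ± 0.11, adjusted p = 3.96e-07). Sod1, superoxide dismutase, stood at 720.4, 744, 721 and 816 CPM at day 0 and at 408, 408, 444 and 397 CPM after fat co-culture (log2 fold change -0.86 ± 0.10, adjusted p = 2.76e-06). Nqo1, a quinone reductase and NRF2 target, fell 5.29-fold and Gstm1, a glutathione transferase, 2.11-fold. Other members of the list moved the other way. Hmox1, which breaks down haem, stood at 479, 395, 429.8 and 416 CPM at day 0 and at 1076, 1259, 812 and 887 CPM after fat co-culture (log2 fold change 1.23 ± 0.14, adjusted p = 1.07e-06), and the metallothioneins Mt1 and Mt2 rose 1.93-fold and 3.57-fold. Neither the fallen nor the risen genes named here had overlapping groups.

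Of 22 iron and haem genes, 6 were called higher and 3 lower. Hp, the haemoglobin scavenger haptoglobin, stood at 1.35, 4.23, 2.09 and 1.86 CPM at day 0 and at 20.2, 21.1, 23 and 20.3 CPM after fat co-culture (log2 fold change 3.23 ± 0.26, adjusted p = 1.39e-08). The haem-binding protein gene Hebp1 and the metal importer Slc39a14 rose 2.36-fold and 2.27-fold. Blvra, biliverdin reductase, which acts after HMOX1, fell from 473, 441, 445 and 489.6 to 322, 382, 314 and 316 CPM, and Slc48a1, which carries haem out of the phagolysosome, from 490.0 ± 32 to 362 ± 15.6 CPM (adjusted p = 0.00648 and 0.00327). Of the ferritin chains, Ftl1 fell 1.36-fold and Fth1 had no call (adjusted p = 0.575); both have many processed copies in the genome.

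Of 41 lipid handling genes, 7 were called higher and 8 lower, shares near those over all genes, and the other 26 had no call (the former 11 without fat replicate 2 and 4 without fat replicate 4). Nr1h3, which encodes the oxysterol receptor LXRα, stood at 49.4, 45.2, 47.8 and 56 CPM at day 0 and at 20.0, 22.4, 23.7 and 23.3 CPM after fat co-culture (log2 fold change -1.15 ± 0.12, adjusted p = 2.25e-07). Abcg1, an exporter of cholesterol and LXR target, stood at 66.8, 111, 70.4 and 73.4 CPM at day 0 and at 38.4, 22, 31.5 and 28.7 CPM after fat co-culture (log2 fold change -1.40 ± 0.17, adjusted p = 3.94e-06). The desaturases Scd1 and Scd2 rose 2.85-fold and 1.86-fold, the former by 6.10% of its fibroblast level, and Rxra, the partner of LXR and PPAR receptors, rose 2.01-fold. Mylip, a ubiquitin ligase gene and LXR target, rose 1.67-fold. Of the sterol synthesis and uptake genes, 11 of 23 were called higher and the other 12 had no call; Insig1 and Tm7sf2 rose 1.94-fold and 1.74-fold. The groups did not overlap for Nr1h3, Abcg1, Scd1, Scd2, Rxra or Mylip.

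Of 41 lysosomal genes, 12 were called higher and 4 lower. The risen members encode enzymes of the lumen. The 4 fallen members are among 15 tested genes of the V-ATPase, which acidifies the organelle, and the other 11 of these had no call. Glb1, the lysosomal β-galactosidase, stood at 181, 200.2, 213 and 171 CPM at day 0 and at 326, 296, 274 and 303 CPM after fat co-culture (log2 fold change 0.65 ± 0.12, adjusted p = 0.000348). Atp6v1b2 fell from 334, 368, 335 and 339 to 241, 198, 219 and 248 CPM and Atp6v1c1 1.40-fold (adjusted p = 6.67e-05 and 0.000703), with no overlap. Atp6v0d2, a subunit variant of osteoclasts and macrophages, fell from 35.7, 117, 57.4 and 28.1 to 13.9, 11.9, 17.3 and 11.3 CPM, with day-0 replicate 2 the highest library. Tfeb, a main activator of lysosomal genes, also fell, from 42.3, 48.8, 37.4 and 55 to 23.4, 19.7, 24.9 and 29 CPM (log2 fold change -0.92 ± 0.17, adjusted p = 0.000445).

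Transcription factor genes were called higher in 25 and lower in 5 of 56 cases (median log2 fold change 0.58). Of the risen members, Egr1, Junb, Klf2, Nr4a1, Klf4, Egr3, Jun, Atf3, Fos and Fosb are counted again among the immediate early genes below. Against the mammary co-culture 16 of the 56 were called higher in fat, where 1.67% of all genes were. The part of cell handling or sort time in these counts was not tested. Stat3, which carries signals of the interleukin-6 and interleukin-10 families, stood at 45.5, 55.3, 48.4 and 55.4 CPM at day 0 and at 104, 104, 114 and 109 CPM after fat co-culture (log2 fold change 1.08 ± 0.10, adjusted p = 1.3e-07). Cebpb, a factor of inflammatory genes and of arginase, rose 2.23-fold. The lowest fat library exceeded the highest day-0 library for both. Batf3 and Irf4, best known from dendritic cells, fell to low levels, Batf3 from 12, 15.3, 9.39 and 9.71 to 3.43, 1.37, 3.08 and 3.06 CPM and Irf4 from 8.10, 18.2, 9.19 and 8.27 to 2.09, 0.916, 2.60 and 1.88 CPM (adjusted p = 2.86e-06 and 3.93e-06). Id3, an inhibitor of basic helix-loop-helix factors, fell 1.96-fold and was still higher than in the mammary co-culture (means 97.5 ± 12.5 and 44.2 ± 3.51 CPM, adjusted p = 8.15e-05). Irf5 had no call (adjusted p = 0.117).

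Immediate early genes, which cells switch on within minutes of a stimulus or of handling, were listed with heat shock genes, and 17 of the 29 were called higher and 3 lower (1 lower without fat replicate 3 or day-0 replicate 1). By kind, 16 of 19 immediate early genes were called higher and the other 3 had no call, while of 10 heat shock genes Hspb1 was called higher, Hsph1, Hspe1 and Hspd1 lower and the other 6 had no call. Ier3 stood at 58.5, 76.7, 71.2 and 74.2 CPM at day 0 and at 399, 564, 470.2 and 497 CPM after fat co-culture, and Ier2 at 114, 124, 118 and 141 and 578, 569, 489 and 575 CPM (adjusted p = 5.18e-10 and 1.52e-09). The antiproliferative gene Btg2 rose 5.31-fold and the MAP kinase phosphatase gene Dusp1 2.94-fold. Each of these 4 separated the groups. For Dusp1 the mean was 789 ± 104 CPM with fat, 748 ± 147 with lung and 196 ± 51.6 with mammary fibroblasts (fat against mammary, adjusted p = 6.42e-07), and 19 of the 29 members of both kinds were called higher in fat than in mammary co-culture, where 1.67% of all genes were. The part of cell handling or sort time in these values was not tested. Hsph1, a chaperone gene, fell 1.56-fold.

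Clock genes were called higher in 4 and lower in 2 of 13 cases, the latter count being 0 without fat replicate 1 or day-0 replicate 2. Per1 and Per2, the period genes, stood at 12.3 ± 5.14 and 2.23 ± 1.28 CPM at day 0 and at 25.6 ± 3.65 and 6.18 ± 1.02 CPM after fat co-culture (adjusted p = 0.00256 and 0.000465), and Nfil3, a repressor paired with the clock, rose 2.44-fold. Time of day of collection is not given in the labels. Tef had no call.

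Of 28 survival and cell death genes, 10 were called higher and 2 lower, the latter count being 0 without fat replicate 3. Phlda3, a p53-induced inhibitor of AKT, stood at 15, 10.7, 14.8 and 13.4 CPM at day 0 and at 74, 54, 51.4 and 47.6 CPM after fat co-culture (log2 fold change 2.06 ± 0.17, adjusted p = 1.63e-08). Bcl2 rose 1.81-fold, and Mcl1 had no call (396 ± 56.2 and 425 ± 41.1 CPM, adjusted p = 0.61). Cell cycle genes included more falls than rises, with 17 of 44 called lower and 4 higher (2 without fat replicate 1 or day-0 replicate 3 or 4). The falls included the replication genes Mcm2 to Mcm7, Cdc6, Cdt1 and Pcna. Mki67, Top2a, Cdk1, Ccnb1, Plk1 and Aurkb, genes of proliferation and mitosis, had no call, while the mitotic genes Birc5 and Cenpa fell and rose. The list also holds inhibitors of cyclin-dependent kinases, of which Cdkn1c fell, Cdkn1b and Cdkn2d rose and Cdkn1a and Cdkn2c had no call. Ccne1, cyclin E1 of the start of DNA replication, stood at 89.5, 45.2, 60.3 and 76.7 CPM at day 0 and at 28, 36.9, 28.4 and 27.3 CPM after fat co-culture (log2 fold change -1.18 ± 0.17, adjusted p = 3.03e-05), and Ung, which removes uracil from new DNA, fell 2.38-fold. Day-0 replicate 1 was the highest for Ccne1, and the groups did not overlap. Ccnd2, cyclin D2, rose 4.89-fold, by 5.74% of its fibroblast level. Ccnd1 had no call and was lowest in day-0 replicate 2, at 188 CPM.

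Eicosanoid genes, which turn arachidonic acid into prostanoids and leukotrienes, were called higher in 7 and lower in 2 of 19 cases (1 lower without day-0 replicate 4). Ptgs1 encodes cyclooxygenase-1. It stood at 55.8, 71.2, 62.6 and 55 CPM at day 0 and at 363, 429.5, 438 and 438 CPM after fat co-culture (log2 fold change 2.77 ± 0.17, adjusted p = 5.18e-10). Ltc4s, leukotriene C4 synthase, stood at 17.2, 22.4, 14 and 15.7 CPM at day 0 and at 131, 113, 139 and 135 CPM after fat co-culture (log2 fold change 2.92 ± 0.19, adjusted p = 1.01e-09). Tbxas1, thromboxane synthase, stood at 203, 258, 203 and 255 CPM at day 0 and at 627, 655, 582 and 598 CPM after fat co-culture (log2 fold change 1.42 ± 0.11, adjusted p = 6.2e-09). Every fat library was above every day-0 library for these synthases. All 3 were higher in the fat than in the mammary co-culture, where the means were 139 ± 38.8, 75.4 ± 23.1 and 448 ± 27 CPM (adjusted p = 5.73e-06, 0.0128 and 0.021). Ptger3, a prostaglandin E2 receptor, fell from 5.02, 4.23, 3.97 and 3.10 to 0.381, 0, 0.947 and 0.707 CPM, and Alox5ap had no call.

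Adhesion genes included 13 called higher and 6 lower of 28. Itgb5, the β chain of the vitronectin receptor αvβ5 used in the uptake of apoptotic cells, stood at 207, 262, 164 and 260.4 CPM at day 0 and at 483, 513, 500.1 and 602 CPM after fat co-culture (log2 fold change 1.23 ± 0.16, adjusted p = 4.58e-06). The tetraspanin gene Cd81 stood at 166, 141, 171 and 185 CPM at day 0 and at 337, 328, 344 and 340.4 CPM after fat co-culture (adjusted p = 3.27e-07). Both groups were tight, and they did not overlap. Thbs1, thrombospondin-1, went from 1.76 ± 0.740 to 39.2 ± 4.85 CPM, within fibroblast reach at 1.25%. Sdc1, the heparan sulphate carrier syndecan-1, fell 1.90-fold.

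Genes of circulating monocytes were mixed, 5 called higher and 7 lower of 15. S100a4, a calcium-binding protein of motile cells, stood at 5471, 5572, 4118 and 6108 CPM at day 0 and at 1922, 2446, 2031 and 2185 CPM after fat co-culture (log2 fold change -1.31 ± 0.16, adjusted p = 3.61e-06). S100a10, the annexin A2 partner, fell 2.66-fold and Ms4a4c 2.83-fold. Mgst1, a microsomal glutathione transferase, stood at 65.8, 109, 69.5 and 69.4 CPM at day 0 and at 233, 236, 197 and 182 CPM after fat co-culture (log2 fold change 1.44 ± 0.15, adjusted p = 3.32e-07). The risen and fallen members named here alike separated the groups.

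Interferon-stimulated genes moved in 1 direction where they moved. Of 35 tested, 26 were called lower and the other 9 had no call (median log2 fold change -1.23). Isg15, a ubiquitin-like modifier, stood at 179, 94.6, 187 and 191 CPM at day 0 and at 41.3, 42.8, 44.3 and 40.3 CPM after fat co-culture (log2 fold change -1.95 ± 0.18, adjusted p = 6.03e-08). Rtp4, an inhibitor of viral replication, stood at 434, 290.3, 446 and 362 CPM at day 0 and at 76.7, 95.7, 93.3 and 75.1 CPM after fat co-culture (log2 fold change -2.17 ± 0.22, adjusted p = 5.47e-07). Day-0 replicate 2 was the lowest of its group for both genes, and all fat libraries lay below it. Rtp4 was lower in the fat than in the mammary co-culture (mean 159 ± 50.0 CPM, adjusted p = 0.028).

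Interferons act through the factor complex ISGF3, which binds the interferon-stimulated response element. Promoter windows from 250 bases before to 50 bases after the gene start, as given by RefSeq, were searched on both strands for the core of that element, written as TTTC, 2 bases of any kind and TTTC again. Of 25 interferon-stimulated genes with a window, 16 held a match (64.0%), against 324 of 8303 tested genes with a window (3.90%). Among the members called lower it was 11 of 17 (64.7%) and among those without a call 5 of 8 (62.5%), so the match did not separate fallen from other members. The 250 bases before the start of 3 fallen genes are shown, 5′ to 3′ on the gene's strand, because they hold separate matches, overlapping matches and no match. Matches are in capitals. Ifit3 (chr19:34583279-34583528, GRCm38.p6, plus strand) holds 2 separate matches, Isg15 (chr4:156200819-156201068, minus strand) holds 1 stretch of overlapping matches, read on the opposite strand, and Irf7 (chr7:141266425-141266674, minus strand), the interferon regulatory factor that amplifies the response, holds none, which says only that these letters are not in its window.
Ifit3: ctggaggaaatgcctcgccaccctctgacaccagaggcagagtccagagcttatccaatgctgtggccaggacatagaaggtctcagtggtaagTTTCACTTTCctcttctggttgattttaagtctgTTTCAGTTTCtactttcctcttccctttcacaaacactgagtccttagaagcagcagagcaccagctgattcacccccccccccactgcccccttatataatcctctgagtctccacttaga
Isg15: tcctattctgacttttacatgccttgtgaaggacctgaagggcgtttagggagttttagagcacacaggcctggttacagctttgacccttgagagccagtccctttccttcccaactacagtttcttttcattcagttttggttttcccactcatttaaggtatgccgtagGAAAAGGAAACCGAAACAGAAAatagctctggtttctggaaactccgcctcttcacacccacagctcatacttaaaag
Irf7: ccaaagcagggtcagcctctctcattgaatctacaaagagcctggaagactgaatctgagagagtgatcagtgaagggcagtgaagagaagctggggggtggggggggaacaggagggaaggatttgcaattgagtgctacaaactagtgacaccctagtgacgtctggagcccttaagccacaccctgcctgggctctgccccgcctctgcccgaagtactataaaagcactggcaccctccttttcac

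Ifit3 was 6.61-fold lower, Isg15 3.87-fold and Irf7 4.21-fold lower after fat co-culture than at day 0, so the size of the fall did not follow the number of matches in these 3 genes. Class II presentation genes fell alongside, with 6 of 13 called lower. The single risen member with all libraries was Cd86 (2 had risen without day-0 replicate 2), a co-stimulatory ligand of T cells, at 0.386, 0, 0.626 and 0.207 CPM at day 0 and 2.09, 3.66, 4.74 and 3.06 CPM after fat co-culture (adjusted p = 1.58e-05), low in both groups and without overlap.

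The fat co-culture was set against the lung and mammary co-cultures in the same fit. Of the genes tested, 319 (3.1%) were called between fat and lung, 212 higher (2.06%) and 107 lower (1.04%) in fat. Between fat and mammary 280 (2.72%) were called, 172 higher (1.67%) and 108 lower (1.05%) in fat. Fibroblast marker levels differed between the co-cultures too. Summed fibroblast markers stood at 208 to 371 CPM with fat, 122 to 242 CPM with lung and 379 to 528 CPM with mammary fibroblasts, and of the 11 tested, 1 was called higher in fat than in lung and 4 lower than in mammary. Summed smooth muscle markers stood at 96.3 to 153 CPM, 24.0 to 34.7 CPM and 62.0 to 69.2 CPM, and 4 of 5 were called higher in fat than in lung. Genes called against day 0, lung and mammary with 1 sign numbered 27 higher (0.262%), of which 8 were reachable by fibroblast RNA, and 2 lower (0.0194%). Without fat replicate 3 or 4 the total of 29 was 17 or 19. Ptgs1, described above, was among the 27 (fat against lung, adjusted p = 0.00149).

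**Figure D5:**
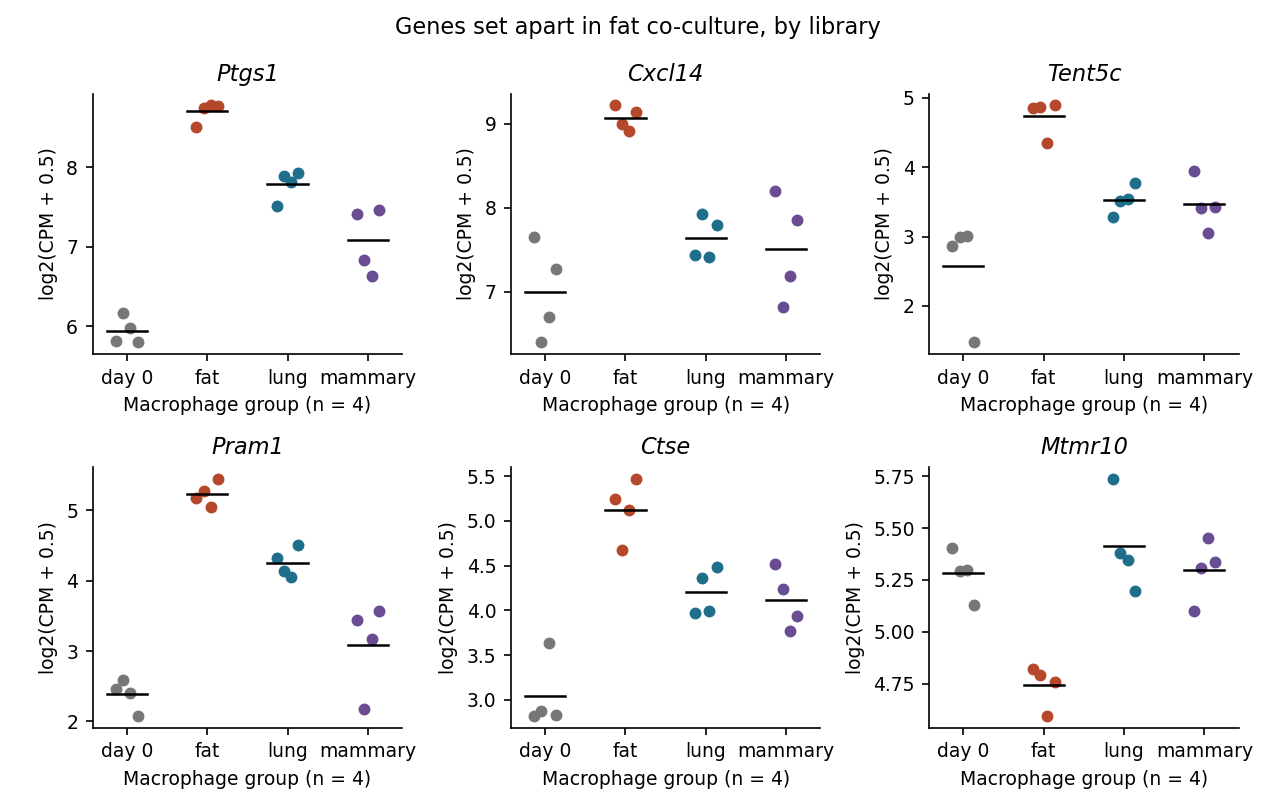
Levels of 6 genes set apart in fat co-culture, as log2(CPM + 0.5), in each of the 4 libraries of day 0, fat, lung and mammary co-culture; bars are group means. The fat libraries lie highest for Ptgs1, Cxcl14, Tent5c, Pram1 and Ctse and lowest for Mtmr10.

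Cxcl14, a chemokine common in skin and fat, stood at 594, 511, 482 and 564 CPM after fat co-culture, and the means were 135 ± 52.2 CPM at day 0, 202 ± 36.5 CPM with lung and 195 ± 82.4 CPM with mammary fibroblasts (fat against lung, adjusted p = 0.0115; against mammary, 0.0127). Pram1, an adaptor of myeloid cells, stood at 35.8, 38, 32.4 and 43.1 CPM after fat co-culture against means of 4.77 ± 0.760, 18.7 ± 2.70 and 8.56 ± 3.25 CPM in the same order. Tent5c, a poly(A) polymerase, and Ctse, the aspartic protease cathepsin E, had means of 26.6 ± 4.47 and 35.1 ± 7.84 CPM in fat, 11.1 ± 1.58 and 18.2 ± 3.35 with lung and 10.8 ± 3.01 and 17.2 ± 4.13 CPM with mammary fibroblasts. The 4 fat libraries lay above all day-0 libraries for these 4 genes, which were low in fat fibroblasts except Cxcl14 (123 ± 38.7 CPM, rise 328% of that). Des and Myl9 were set apart as well and were reachable by fibroblast RNA, with means of 25.4 ± 3.85 and 22.5 ± 8.13 CPM in fat against 3.26 ± 1.22 and 5.14 ± 1.43 with lung and 0.946 ± 0.342 and 12.2 ± 2.47 with mammary fibroblasts. The 2 lower genes were Ralgds, which activates the GTPase Ral, at 43.2 ± 6.53 CPM in fat against 68 ± 9.73 at day 0, 92.3 ± 15.6 in lung and 69.1 ± 11.1 in mammary, and Mtmr10, a myotubularin-related gene, at 26.3 ± 1.83 CPM against 38.5 ± 3.02, 42.6 ± 7.16 and 39 ± 3.93.

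Among genes of at least 20 CPM, those that varied most over the 4 fat libraries were not evenly spread across replicates. Nipa2, Tmed7 and Dab2 were low in fat replicate 2. Dab2, an endocytic adaptor, stood at 141, 27.5, 162 and 154 CPM in fat replicates 1 to 4 and at 22.8, 21.5, 50.1 and 27.1 CPM at day 0. Tmed7, a cargo receptor of the secretory pathway, stood at 69.9, 9.62, 76 and 82.7 CPM in the fat replicates, and Nipa2, a magnesium transporter, at 26.6, 2.52, 30.1 and 30.4 CPM. Replicate 2 lay within the day-0 range for these 3 genes, while the other fat replicates lay above it. None was called with all 4 fat replicates (adjusted p = 0.0937, 0.146 and 0.093). Without fat replicate 2 the log2 fold changes were 2.33, 2.29 and 2.44 (adjusted p = 0.0495, 0.0759 and 0.0303), and Dab2 and Nipa2 were called. The genes were chosen for their spread among the fat libraries, so a larger rise without their low library follows in part from that choice. Gapdh was high in fat replicate 1 only, at 212, 20.8, 19.7 and 16.3 CPM, and in day-0 replicates 2 and 4, and Mir692-1 in fat replicates 1 and 2; both have copies elsewhere in the genome, so their counts are uncertain.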

How the data were processed

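The libraries are 3′ RNA-seq of sorted cells. The authors deposited raw counts per gene in one table for the macrophages and others for the fibroblasts. Per the submitters' processing notes, the tools were bcl2fastq, STAR 2.4.2a and HTSeq and the build was mm10, while the counting options, strand included, are not given in those notes. A gene absent from the macrophage table, which holds 11965 genes, has no value here. Deposited totals were 3040103 to 5225982 counts in the 8 libraries, and floors cover counting error only. The SE of a fold change comes from the fit and includes the spread between libraries.

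From these counts, edgeR 4.0.16 in R 4.3.3 (TMM scaling, filterByExpr with a minimum count of 10, robust quasi-likelihood F test) was fitted to all 16 macrophage libraries, which share one estimate of the spread. The 10295 genes that passed were tested with Benjamini-Hochberg adjustment and a threshold of 0.05. The contrasts were fat minus day 0, minus lung and minus mammary. The procedure was tested on simulated data. The labels number the libraries as repetitions and do not say that the macrophages came from separate animals, so p-values measure the spread between these libraries, which may be technical. No pair within a group was alike within sampling noise (chi-square per degree of freedom 3.47 to 14.8), so all were counted. Fibroblast levels are CPM in 3 libraries of co-cultured fat fibroblasts from a separately deposited table and scaled separately, so a percentage of the fibroblast level is approximate. Promoter sequences come from RefSeq.

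Members and lists were chosen with earlier results of these data known. Genes named had a call, a mean of at least 20 CPM in the higher group and no overlap (15 largest rises past 5% of the fibroblast level, 5 within it, 15 largest falls). Others were, per list, the 4 called members with the smallest adjusted p in each direction and the most abundant member without a call, up to 8 genes set apart in each direction, the 6 genes most variable among fat libraries, and Adgre1, Itgam and Csf1r. A selection of these is printed, and predicted, ribosomal protein and mitochondrially encoded genes were left out of all but the per-list choices. Alternatives were other scalings, DESeq2 1.42.0, no filter, a replicate block, the 8 libraries alone and leaving out each library. The search for ELR motifs in chemokine proteins was not run. A few further members named without values were chosen after their values were seen. Some genes are not reported here.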

Additional observations from a re-analysis of the deposited data

Results flagged for a closer look

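Within each group of 4 libraries, a gene was looked at again when its highest or lowest library stood apart from the other 3, that is when the gap to the nearest of them, as a share of the group's whole range, passed the critical value of Dixon's test at the 95% level. This held for 52 of 439 tested groups of values, and chance gives about 1 in 20. The genes included 6 chosen for their spread among fat libraries, which hold 3 of the 52, so the count is in part fixed by that choice. Standing highest was fat replicate 1 for Gapdh (0.977), the gap as a share of the range in parentheses. Standing lowest was fat replicate 1 for Ptgs1 (0.883). The fat replicate 2 was highest for Anxa1 (0.844), Blvra (0.886), Ccl12 (0.837), Ccne1 (0.886), Ctss (0.830), Fth1 (0.883), Mt1 (0.858), Ndufa2 (0.881), Prtn3 (0.853), Saa3 (0.874) and Taldo1 (0.928). The fat replicate 2 was lowest for C5ar1 (0.908), Dab2 (0.840), Il18 (0.847), Irf5 (0.949) and Nipa2 (0.866). Standing highest was fat replicate 3 for Clec4a3 (0.917). Standing lowest was fat replicate 3 for Cd44 (0.858), Cebpb (0.872), Ier2 (0.900), Rxra (0.853) and Tent5c (0.909). The fat replicate 4 was highest for Id3 (0.867). The fat replicate 4 was lowest for Bnip3 (0.907) and Rgcc (0.849). Standing highest was day-0 replicate 1 for Il18 (0.874) and Prtn3 (1.000). The day-0 replicate 2 was highest for Abcg1 (0.849), Atp6v1b2 (0.842), Csf3r (0.914), Fam83f (0.835), Irf4 (0.893), Lat (0.833), Mgst1 (0.914), Nppb (0.915), Phlda2 (0.841) and Rgcc (0.863). The day-0 replicate 2 was lowest for Cnn1 (0.924), Cyc1 (0.835), Irf7 (0.948), Isg15 (0.872) and Tnfsf14 (0.878). Standing highest was day-0 replicate 3 for Arg1 (0.858) and Ctse (0.950). Standing lowest was day-0 replicate 3 for Cebpb (0.936) and Tspoap1 (0.919). The day-0 replicate 4 was highest for Des (1.000) and Ndufa2 (0.832). The values of 1.000 rest on 0.207 CPM for Des and 0.193 CPM for Prtn3, below the level of 3 counts. The rate of 1 in 20 may not hold at so few counts. The day-0 replicate 4 was lowest for Bnip3 (0.847) and Tent5c (0.854). Replicate 2 held 16 of these in the fat group and 15 in the day-0 group.

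Levels in the macrophage libraries differed between co-cultures for genes named in the text, by the direct contrast in the same fit. Summed fibroblast markers differed as well, at 208 to 371 CPM with fat, 122 to 242 CPM with lung and 379 to 528 CPM with mammary fibroblasts. Summed smooth muscle markers stood at 96.3 to 153, 24.0 to 34.7 and 62.0 to 69.2 CPM. The part of fibroblast RNA in the differences of genes that fibroblasts express, among them Des, Myl9, Tagln, Cnn1, Aebp1, Thbs1 and Mmp14, was not tested. Against the lung co-culture, 36 such genes were called, with the log2 difference, fat minus lung, in parentheses. Higher in fat than in lung were Cck (4.08), Pmepa1 (3.75), Des (2.94), Myl9 (2.11), Tagln (1.85), Cnn1 (1.71), Trem1 (1.69), Cd86 (1.47), Cxcl14 (1.41), Gpr84 (1.40), Thbs1 (1.35), Fn1 (1.31), Tent5c (1.25), Mmp14 (1.10), Gcnt2 (1.08), Pram1 (0.98), Ctse (0.95), Ptgs1 (0.91), Pilra (0.86), Hp (0.86), Itgb5 (0.84), Aebp1 (0.78), Tlr2 (0.70), Tgfbr1 (0.67), Il17ra (0.66), Hk2 (0.64) and S1pr1 (0.57). Lower in fat than in lung were Clec10a (-2.45), Lrg1 (-1.19), Ccl12 (-1.18), Mt2 (-1.15), Ralgds (-1.10), Gas6 (-0.70), Mtmr10 (-0.69), Lgals3 (-0.49) and Ctsb (-0.46). Against the mammary co-culture, 37 were called. Higher in fat than in mammary were Des (4.70), Bmp2 (4.47), Tspoap1 (3.48), Ppbp (3.10), Cck (3.10), Prtn3 (2.26), Nr4a1 (2.26), Pram1 (2.12), Dusp1 (2.01), Plppr3 (1.92), Ptgs1 (1.58), Cxcl14 (1.46), Cxcl2 (1.44), Osm (1.41), Tent5c (1.29), Hspb1 (1.22), Id3 (1.14), Ier2 (1.11), Btg2 (1.10), Per1 (1.05), Ctse (1.02), Nfkbiz (1.00), Myl9 (0.88), Ltc4s (0.78), S1pr1 (0.67), C5ar1 (0.62), Irf5 (0.50) and Tbxas1 (0.46). Lower in fat than in mammary were Fpr1 (-2.09), Ccl12 (-1.76), Tnf (-1.33), Fpr2 (-1.33), Mmp14 (-1.31), Rtp4 (-0.90), Casp4 (-0.71), Ralgds (-0.68) and Mtmr10 (-0.56). All co-cultures were compared with the same 4 day-0 libraries, which cancel in these contrasts.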

How the results depend on the processing

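Fat co-culture against day 0 gave 3107 calls, 3112 with median-of-ratios size factors, 3063 with upper quartile scaling (1693 higher and 1370 lower, against 1624 and 1483), 3398 with DESeq2, 3468 with no filter on low counts and 2916 from the 8 libraries alone. Leaving out 1 library gave 2547 to 3328, and without the genes reachable by fibroblast RNA 2852 calls stood. Of the 3107 genes, 2991 kept their call with DESeq2, 2704 in the 8 libraries alone and at least 2459 without any 1 library, and none of them changed sign. Calls against lung numbered 319 (226 to 355 without 1 library), and calls against mammary 280 (145 to 323), with 149, 184 and 145 without fat replicates 1, 3 and 4. Genes set apart numbered 29 (17 to 40), with 17 and 19 without fat replicates 3 and 4. Fewer samples enter these fits. The fibroblast marker difference was 3.10 to 3.40 without 1 library. Rises reachable by fibroblast RNA numbered 195 at the 5% limit, 111 at 2% and 271 at 10%. Deviations of same-numbered fat and day-0 libraries correlated at 0.106, -0.153, 0.0286 and 0.0764 (Pearson, across genes, which are not independent). Those of unlike-numbered libraries correlated at -0.163 to 0.197, so the same-numbered ones did not stand out. These values cannot exclude a shared animal or batch. With the replicate block the calls numbered 3111 against day 0, 354 against lung, 274 against mammary and 34 set apart. Genes with few counts are limited by depth, since 3 counts correspond to 0.571 to 0.975 CPM.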

Other observations

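Of the genes called lower, 3 had no count in any fat library although each had at least 71 counts at day 0, namely Dcstamp, described above, Nppb and Phlda2. Phlda2, which limits placental growth, stood at 4.82, 10.4, 4.18 and 5.17 CPM in day-0 replicates 1 to 4, 102 counts in all, and was at least 37.0-fold lower after fat co-culture (floor of 3 counts over the fat group). It lies near Cdkn1c in an imprinted cluster on chromosome 7, and Cdkn1c, an inhibitor of cyclin-dependent kinases, stood at 32.4, 53.6, 40.5 and 34.3 CPM at day 0 and at 3.05, 1.37, 0.710 and 3.06 CPM after fat co-culture (log2 fold change -4.24 ± 0.29, adjusted p = 2.03e-09). Both are expressed from the maternal allele in mice. Slc22a18, a maternally expressed gene that lies between them, had no call (5.35 ± 2.00 and 4.93 ± 1.33 CPM, adjusted p = 0.797), and Nap1l4, on the other side of Phlda2, had none either (105 ± 18.8 and 90.7 ± 4.46 CPM, adjusted p = 0.185). In the lung and mammary co-cultures Phlda2 had means of 0.192 ± 0.140 and 0 ± 0 CPM and Cdkn1c 2.10 ± 0.353 and 0.966 ± 0.399 CPM. Nppb, which encodes B-type natriuretic peptide, stood at 4.44, 14.6, 5.22 and 4.34 CPM at day 0 and was at least 43.2-fold lower after fat co-culture. These genes were chosen after their values were seen.

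Other motifs were searched in the same promoter windows. TGACNNNGC, the core of the antioxidant response element, was present in 11 of 22 antioxidant genes (50.0%) and 17.2% of all genes with a window, and among members called higher, lower and not called in 2 of 4, 3 of 9 and 6 of 9. TCACNCCAC, a sterol regulatory element, was present in 1 of 17 sterol genes (5.88%) against 1.41%. TGANTCA, the AP-1 site, was present in 1 of 24 immediate early and heat shock genes (4.17%) against 6.13%. Of 32 genes of the integrated stress and unfolded protein responses, 3 were called higher and 3 lower (5 lower without day-0 replicate 2), and of 76 ribosomal protein genes 21 were called lower and the other 55 had no call.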
